A study of Homo sapiens with 12 samples.

Results

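Complexes II to V of the mitochondrial respiratory chain are described here by the mRNAs of 38 of their nuclear-encoded subunits, chosen by gene symbol from the 16172 genes of the deposited table. Complex II (succinate dehydrogenase) had 4 members, complex III (cytochrome bc1) 9, complex IV (cytochrome c oxidase) 10 and complex V (ATP synthase) 15. The choice used no measured value, but it was made with earlier results of these data known. All 38 symbols were in the table, and all 38 passed the filter of a mean of at least 1 TPM (the unit of the table, a gene's share of a library's mRNA scaled by transcript length), so no member was set aside.

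The cells were H1299, an established human non-small-cell lung cancer line. They were transfected with either a control siRNA (siCtrl) or an equal mix of 2 siRNAs against EIF3G (siEIF3G), a subunit of the translation initiation factor eIF3, and lysed 72 h later. From each lysate 10% was kept as input RNA, and the remainder was centrifuged through 10 to 50% sucrose to isolate polysomes (mRNA carrying several ribosomes). This gave 12 mRNA libraries in 4 groups of 3, input and polysomal RNA from siCtrl cells and input and polysomal RNA from siEIF3G cells. All groups shared the cell line, the transfection reagent and the time point. No label states that replicates came from separate cultures, so a p-value covers only how much these libraries vary, which may be technical.

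Complex II oxidises succinate in the tricarboxylic acid cycle and passes the electrons to ubiquinone. Complex III moves them on to cytochrome c, complex IV hands them to oxygen, and complexes III and IV pump protons that ATP synthase uses to make ATP. All subunits of complex II are encoded in the nucleus, while complexes III, IV and V each combine nuclear-encoded subunits with core subunits encoded in mitochondrial DNA. The mRNAs described here are therefore read by cytosolic ribosomes, and mitochondrially encoded subunits were not analysed here.

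The knockdown was present in every library. EIF3G stood at 1158, 1092 and 878 TPM in siCtrl input replicates 1, 2 and 3 and at 60.7, 84.7 and 47.3 TPM in siEIF3G input. In polysomal RNA it stood at 1680, 1916 and 1803 TPM with siCtrl and at 143, 132 and 69.2 TPM with siEIF3G. The groups did not overlap, and the log2 change was -4.03 (SE 0.29, limma adjusted p = 3.71e-05) in input and -4.02 (SE 0.29, limma adjusted p = 3.76e-05) in polysomal RNA.

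Every library sums to the same TPM total by construction, so the number of reads behind a value is unknown. Between 13787 and 14659 genes were above 0 per library. Of the 12 libraries, 3 stood apart from their groups: siCtrl input replicate 1 correlated at 0.922 with its own group and at 0.957 with the siCtrl polysomal libraries, siEIF3G input replicate 2 at 0.929 and 0.958, and siEIF3G polysomal replicate 3 at 0.949 and 0.953. Results are therefore also given without these 3 libraries. Of the markers of the line, VIM (265 to 3105 TPM), KRT8 and KRT18 were present, while the epithelial genes EPCAM and CDH1 stayed at or below 0.44 TPM. Of 10 markers of other cell types in the table, 9 stayed at or below 0.7 TPM, and the macrophage and lysosomal gene CD68 was at 59 to 132 TPM.

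The 5′ ends of 7 of the 11 members called between polysomal and input RNA are shown first, those with a single annotated start in RefSeq, since ribosomes are recruited at that end of an mRNA. The sequences come from RefSeq (GRCh38.p14), which held an entry for 30 of the 38 members (250 bases before to 50 after the annotated start); SDHC, UQCRB, CYC1, COX6C, ATP5F1B, ATP5F1D, ATP5MC3 and ATP5MF were not matched, and COX7A2 and ATP5MC2, with several starts, are not shown. Capitals mark the transcript from its annotated first base, and the 15 bases in lower case lie before it. The windows are SDHD at chr11:112086858-112086887 (plus strand), UQCRC1 at chr3:48609632-48609661 (minus), UQCR11 at chr19:1605448-1605477 (minus), COX4I1 at chr16:85799680-85799709 (plus), COX5B at chr2:97646047-97646076 (plus), ATP5F1E at chr20:59032321-59032350 (minus) and ATP5MC1 at chr17:48892772-48892801 (plus).
SDHD: cgcctaagtggttccGGGTTGGTGGATGAC
UQCRC1: ctacgcttgcgcggcGCAACAGGGCCGACT
UQCR11: cggccgcgcctgcgcAGTGTAGCCGGGTCA
COX4I1: cggcgcggccttgctCTCTTCCGGTCGCGG
COX5B: cagcttgttcccggaAGTTTTGCTGCTAGT
ATP5F1E: cttctgtggtctgatCTTCCTGCGGCTGAA
ATP5MC1: gaatggagaaggtccAGGACACGTGGGTGG

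COX4I1 and ATP5F1E begin with a C followed by at least 4 pyrimidines, the kind of start known from ribosomal protein mRNAs. Such a start was annotated for 7 of the 30 matched members (23.3%), UQCRH, COX4I1, COX7C, ATP5F1E, ATP5PO, ATP5MC2 and ATP5MG, against 6.88% of 12797 genes of the table with an entry. The 7 did not move one way on polysomes. In siCtrl cells COX4I1 and ATP5MC2 were higher in polysomal than in input RNA and ATP5F1E was lower, and the median log2 change was 0.30 for the 7 and 0.01 for the other 23 matched members.

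Promoters of the members often held binding cores of 2 families of transcription factors known to drive respiratory genes. The NRF1 core GCATGCGC was present on either strand in 8 of 30 promoters (26.7%), against 5.69% of the table's genes, and the ETS core CCGGAAG (the family of GABPA) in 15 of 30 (50%), against 19.3%. Both occurred together in 6 promoters (20%), against 1.44%. By complex, the ETS core was found in 2 of 3 matched promoters of complex II, 3 of 7 of complex III, 5 of 9 of complex IV and 5 of 11 of complex V, and the NRF1 core in 2, 0, 2 and 4. The stretches below show the cores in capitals, with overlapping matches on both strands joined, in the part of each promoter before the start, at chr11:112086753-112086812 (SDHD, plus strand), chr19:1605543-1605589 (UQCR11, minus) and chr2:97645916-97646041 (COX5B, plus). The start window of COX5B holds a further ETS core, which spans its annotated first base. That of COX4I1 also holds an ETS core, on the other strand and after its annotated first base. A match is a match of letters only, and the motifs were chosen with the results of these data known.
SDHD: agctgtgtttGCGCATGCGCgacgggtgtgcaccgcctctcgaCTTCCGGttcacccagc
UQCR11: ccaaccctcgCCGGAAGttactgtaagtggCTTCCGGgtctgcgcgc
COX5B: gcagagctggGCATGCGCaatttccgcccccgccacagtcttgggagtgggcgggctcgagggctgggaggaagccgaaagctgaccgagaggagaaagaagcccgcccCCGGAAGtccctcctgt

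The 4 complexes differed widely in the summed TPM of their members. Complex IV held the most in 11 of 12 libraries, complex V came next, complex III followed with a ratio of complex IV to complex III from 1.86 to 3.16, and complex II was far below, with a ratio of complex IV to complex II from 14.7 to 59.5. In siCtrl input the sums were 12703 ± 1660 TPM for complex IV, 10753 ± 997 for complex V, 5591 ± 1471 for complex III and 441 ± 179 for complex II (SD, n = 3 libraries). All 38 members together made up 2.95% of the library in siCtrl input, 2.79% in siEIF3G input, 3.53% in siCtrl polysomal and 3.44% in siEIF3G polysomal RNA. Complexes IV and V lay close together, and their order turned in siEIF3G input replicate 3, where the ratio of complex IV to complex V was 0.858. In the other 11 libraries it ran from 1.09 to 1.66.

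**Figure D1:**
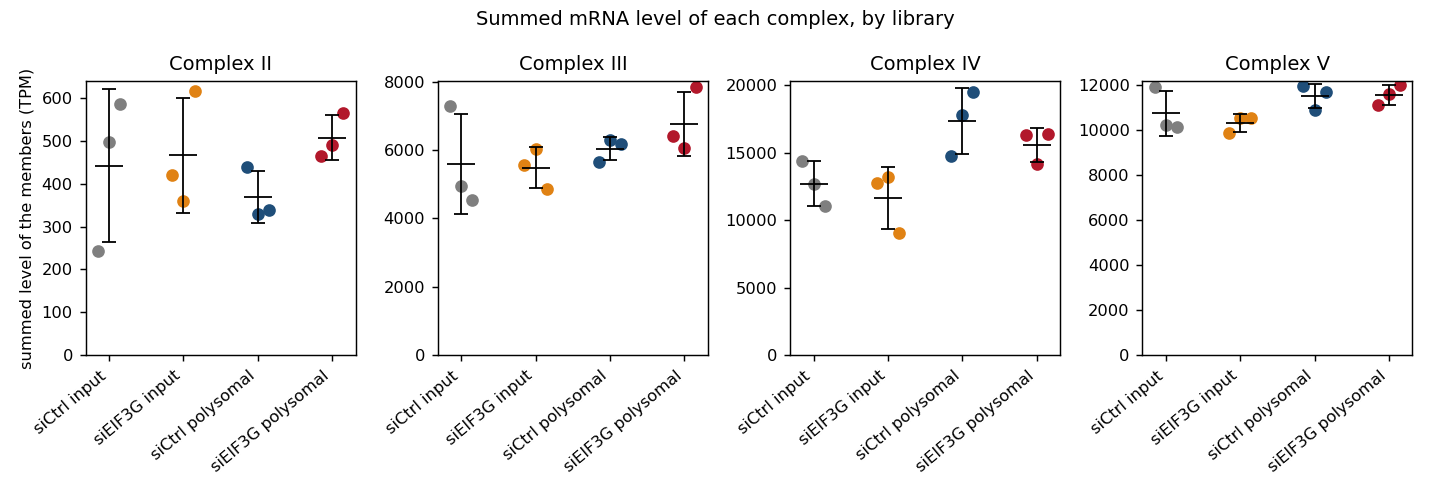
Summed TPM of the members of each complex (y axis, linear from 0, a separate scale for each panel) in the 4 groups, with 1 point per library and the mean ± SD of 3 libraries in black. The 3 siCtrl polysomal sums of complex IV (14725 to 19508 TPM) lie above the 3 siCtrl input sums (11058 to 14379 TPM), while the 3 sums of complex II in siCtrl polysomal RNA lie within the range of its input sums.

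The siCtrl polysomal sum of complex IV was 17348 ± 2425 TPM, and its 3 libraries lay above the 3 siCtrl input libraries. In siEIF3G cells it was 11676 ± 2283 TPM in input and 15596 ± 1254 TPM in polysomal RNA, again with no overlap (9052 to 13207 and 14148 to 16362 TPM). Complex V moved less, from 10753 ± 997 to 11527 ± 547 TPM in siCtrl cells, where its groups overlapped, and from 10319 ± 386 to 11579 ± 453 TPM in siEIF3G cells, where they did not. Complex III was at 5591 ± 1471 and 6040 ± 339 TPM in siCtrl cells and at 5484 ± 592 and 6768 ± 938 TPM in siEIF3G cells, with overlap only in the former. Complex II was at 441 ± 179 and 369 ± 60.1 TPM in siCtrl cells and at 466 ± 134 and 507 ± 52.3 TPM in siEIF3G cells, with overlap in both. These sums are descriptions and were not tested. The differences between complexes were not tested either.

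Within each complex a few mRNAs made up most of the sum. In complex III, CYC1, the cytochrome c1 subunit that donates electrons to cytochrome c, had the highest mean over the 12 libraries at 3276 TPM, and UQCRB and UQCRC2 had the lowest at 49.2 and 49.9 TPM. In complex IV, COX8A, a small membrane subunit, led with 3066 TPM and COX5A was lowest with 130 TPM. In complex V, ATP5MF, a small subunit of the membrane part, led with 2305 TPM and ATP5F1E was lowest with 57.3 TPM. In complex II, SDHB and SDHC were level at 168 and 167 TPM, with SDHD at 68.1 and SDHA at 41.8 TPM. Many members have near-identical copies: RefSeq names 138 pseudogenes after 30 of the 38, none of which is in the table, and reads from them may have been counted with the parent gene. The expressed near copies in the table, UQCRHL, ATP5MF-PTCD1 and ATP5MGL, were at most at 0.54 TPM. Of the 38 members, 7 overlap a second gene of the table, and whether the counting used strand is not given in the sources used here.

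With EIF3G knocked down, no subunit mRNA of complexes II to V changed beyond the spread between libraries in input RNA. None of the 38 members passed limma with Benjamini-Hochberg adjustment at 0.05, and none had an unadjusted p under 0.05. Over all 10605 genes tested 0.0189% were called (2 genes, both lower, EIF3G among them), and 144 genes had an unadjusted p under 0.05. Among the members the log2 changes ran from -0.42 for UQCR11 to 0.42 for UQCRC2, with 18 above 0 and 20 below. The median was -0.04, beside -0.05 over all genes. By complex it was 0.09 for complex II, -0.13 for III, -0.16 for IV and 0.06 for V.

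The widest log2 values in input RNA were both in complex III. UQCRC2, a core subunit of complex III, stood at 14.7, 53 and 73.2 TPM in siCtrl and at 58.8, 22.8 and 106 TPM in siEIF3G (log2 change 0.42, SE 0.64). UQCR11, a small subunit of complex III, stood at 417, 348 and 267 TPM in siCtrl and at 260, 319 and 194 TPM in siEIF3G (-0.42, SE 0.25). Both pairs of groups overlapped, and the low siCtrl value of UQCRC2 and the high one of UQCR11 came from replicate 1, a library that stood apart. In complex IV the range ran from COX5B (-0.38, SE 0.30) to COX4I1 (0.13, SE 0.18), in complex V from ATP5MC1 (-0.25, SE 0.23) to ATP5F1A (0.41, SE 0.63) and in complex II from SDHD (-0.28, SE 0.49) to SDHB (0.40, SE 0.33). Only ATP5ME, a small membrane subunit of ATP synthase, had groups that did not overlap, at 1693, 1660 and 1720 TPM in siCtrl and 1410, 1425 and 1553 TPM in siEIF3G (-0.21, SE 0.19, limma adjusted p = 1). That is 1 of 38 members (2.63%), beside 1.8% of all genes with a lower group that did not overlap and 1.88% with a higher one, where the members had none.

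**Figure D2:**
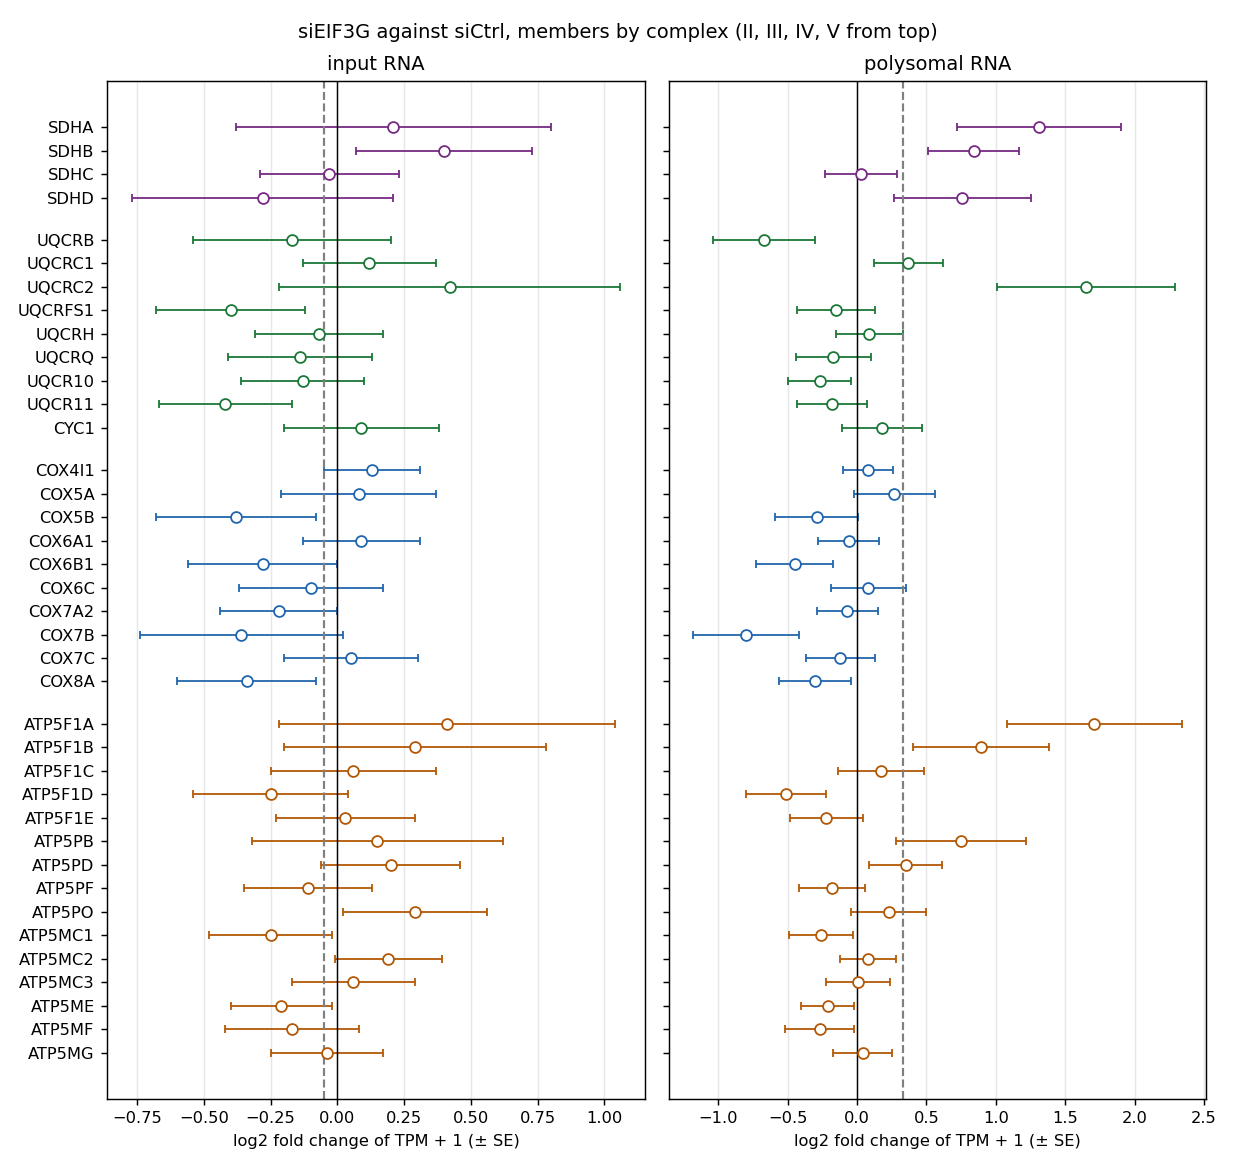
Log2 change of TPM + 1 between siEIF3G and siCtrl (x axis, ± SE) for the 38 members (y axis, ordered by complex from II at the top to V), in input RNA on the left and polysomal RNA on the right, with 3 libraries in each group. Open points did not pass the adjusted threshold, as is the case for every member, and the dashed line is the median of all genes, -0.05 and 0.33.

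In polysomal RNA the picture was wider but again held no call. None of the 38 members passed the limma test after adjustment, beside 0.0189% of all genes, and 4 members had an unadjusted p under 0.05, all with a higher value in siEIF3G: SDHA, SDHB, UQCRC2 and ATP5F1A. Over all genes 709 had an unadjusted p under 0.05. The median log2 change of the members was 0.02 and that of all genes 0.33, so 29 of 38 members lay below the median of all genes. This gap depends on the scaling: the medians were 0.08 and 0.03 under quantile normalization and -0.52 and -0.03 with size factors. The medians were 0.80 for complex II, -0.15 for complex III, -0.09 for complex IV and 0.04 for complex V, or 0.46, -0.48, -0.43 and -0.29 relative to all genes. Between replicates of a group the relative median itself varied, with an SD of 0.17, 0.54, 0.55 and 0.41 for complexes II to V. Differences between the medians of complexes were not tested in any comparison. All 10 members of complex IV lay below the median of all genes.

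The highest value was that of ATP5F1A. This gene, which encodes the alpha subunit of the catalytic head of ATP synthase, stood at 299, 84.8 and 50.9 TPM in siCtrl polysomal RNA and at 302, 396 and 392 TPM in siEIF3G polysomal RNA. All siEIF3G values lay above the siCtrl values, but siCtrl replicate 1 came close to the lowest of them. The log2 change was 1.71 (SE 0.63, unadjusted p = 0.0178, limma adjusted p = 0.65). UQCRC2 stood at 35.5, 21.2 and 10.6 TPM in siCtrl and at 50, 58.3 and 94.8 TPM in siEIF3G, with no overlap (1.65, SE 0.64, limma adjusted p = 0.65). SDHA, the flavoprotein that oxidises succinate, stood at 65.7, 16.9 and 11.2 TPM in siCtrl and at 46.9, 82.6 and 54.8 TPM in siEIF3G, where siCtrl replicate 1 lay inside the siEIF3G range (1.31, SE 0.59, limma adjusted p = 0.65). ATP5F1B, the beta subunit of the same catalytic head, showed the same high siCtrl replicate 1, at 3096, 888 and 594 TPM against 1838, 2904 and 1943 TPM (0.89, SE 0.49, limma adjusted p = 0.65).

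Of the other subunits of complex II, SDHB, the iron-sulphur subunit, stood at 118, 88.5 and 85.2 TPM in siCtrl and at 146, 168 and 211 TPM in siEIF3G, with no overlap (0.84, SE 0.33, limma adjusted p = 0.65). SDHD, a membrane anchor, stood at 25.9, 39.5 and 30.8 TPM in siCtrl and at 43.5, 40.7 and 89.4 TPM in siEIF3G (0.76, SE 0.49, limma adjusted p = 0.65). Its groups did not overlap, although siEIF3G replicates 1 and 2 lay close to the highest siCtrl library. SDHC, the other membrane anchor, stood at 229, 184 and 212 TPM in siCtrl and at 229, 198 and 210 TPM in siEIF3G, with nearly the same range (0.03, SE 0.26). The 4 genes of one complex thus ranged from 0.03 to 1.31 in log2 change.

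**Figure D3:**
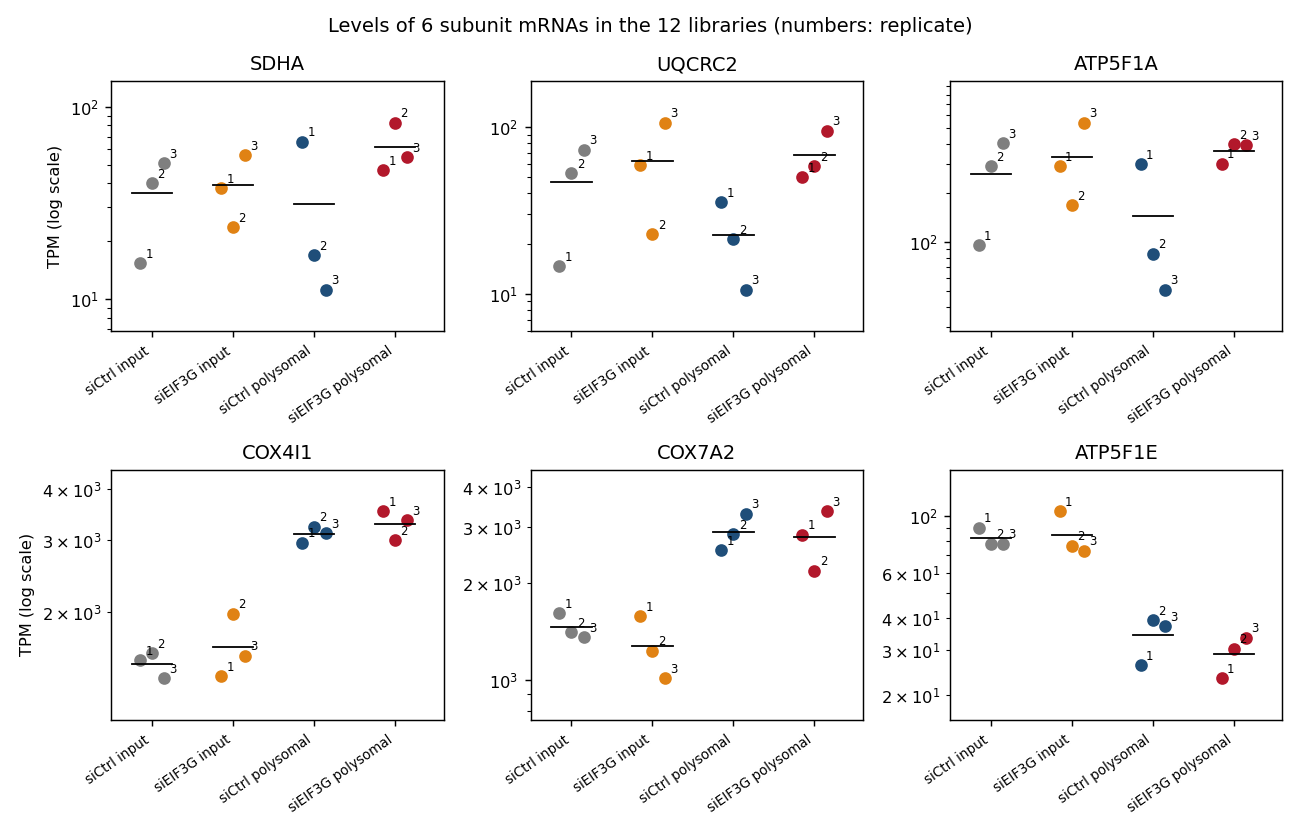
TPM (y axis, log scale, a separate scale for each panel) of SDHA, UQCRC2, ATP5F1A, COX4I1, COX7A2 and ATP5F1E in the 12 libraries, with the replicate number beside each point and a line at the group mean. SDHA, UQCRC2 and ATP5F1A spread widely within groups (ATP5F1A from 50.9 to 299 TPM in siCtrl polysomal RNA), while COX4I1, COX7A2 and ATP5F1E separate polysomal from input libraries.

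The lowest values in polysomal RNA were those of COX7B of complex IV (-0.80, SE 0.38), UQCRB of complex III (-0.67, SE 0.37) and ATP5F1D, the delta subunit of ATP synthase (-0.51, SE 0.29), each with a limma adjusted p of 0.65. COX7B stood at 157, 257 and 285 TPM in siCtrl and at 110, 172 and 115 TPM in siEIF3G, and UQCRB at 25.4, 49.1 and 52.3 TPM and 17.8, 33.7 and 26 TPM, with overlap in both. In complex IV the highest value was that of COX5A (0.27, SE 0.29). Groups did not overlap for 7 members with higher values in siEIF3G (SDHB, SDHD, UQCRC2, ATP5F1A and, of the stalk of ATP synthase, ATP5PB, ATP5PD and ATP5PO). That is 18.4% of the members, beside 21.6% of all genes. One member, ATP5MC1, had lower values without overlap (2.63%, beside 7.61% of all genes).

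Whether the knockdown acted differently on polysomal than on input RNA was tested as an interaction. No member was called, and no member had an unadjusted p under 0.05. Over all genes 0% were called, and 19 had an unadjusted p under 0.05. The difference in log2 change (polysomal minus input) ran from -0.50 for UQCRB (SE 0.53) to 1.30 for ATP5F1A (SE 0.89), followed by UQCRC2 (1.23, SE 0.90), SDHA (1.10, SE 0.84) and SDHD (1.04, SE 0.69), all with a limma adjusted p of 0.908. The medians were 0.74 for complex II, 0.16 for III, 0.00 for IV and -0.01 for V, beside 0.38 over all genes. The lowest value in complex IV was that of COX7B (-0.44) and in complex V that of ATP5F1D (-0.26), while the lowest in complex II was SDHC (0.07).

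The knockdown comparisons were also fitted without the 3 libraries that stood apart, of which only siEIF3G polysomal replicate 3 is polysomal. Without these 3 the polysomal log2 change was 1.65 for ATP5F1A (SE 0.55, limma adjusted p = 0.253), 1.39 for UQCRC2 (SE 0.41, adjusted p = 0.213) and 1.37 for SDHA (SE 0.55, adjusted p = 0.304). With all 12 libraries the values were 1.71, 1.65 and 1.31, and no member was called in either fit. With the main direction of variation within groups added to the model as a covariate, SDHA, SDHB, SDHD, UQCRC2, ATP5F1A and ATP5PB were called higher in siEIF3G polysomal RNA, with adjusted p of 0.043 for SDHA, 0.00125 for UQCRC2 and 0.0107 for ATP5F1A. In that model 36.4% of all genes were called, so 6 of 38 members is not more than the background. Its covariate was estimated from the same libraries that were tested. The interaction then called SDHD alone among the members, beside 18% of all genes.

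Between fractions of the same cells, some subunit mRNAs were called. In siCtrl cells 27 of 38 members were not called, beside 6693 of 10605 genes. Counting both directions, members were thus called less often than all genes. In siCtrl cells 7 of 38 members were higher in polysomal than in input RNA (18.4%, beside 7.98% of all genes) and 4 were lower (10.5%, beside 28.9%). The 7 were SDHC, UQCRC1, COX4I1, COX5B, COX7A2, ATP5MC1 and ATP5MC2, and the 4 were SDHD, UQCR11, ATP5F1E and ATP5MF, of which UQCR11 and ATP5MF turned positive when libraries were scaled by size factors. The median log2 change of the members was 0.10 and that of all genes -0.96, and 34 of 38 members lay above the median of all genes. The size of this gap depends on the scaling. The medians were -0.02 and -0.13 under quantile normalization, so little of the gap was left, and 1.27 and -0.04 with size factors. A TPM is a share, so these values compare a gene's share of polysomal mRNA with its share of input mRNA, and in bulk RNA fewer cells with an mRNA and less of it per cell cannot be told apart.

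Of the complexes, II was the one with the lowest median, -0.60, against 0.04 for III, 0.11 for IV and 0.12 for V (relative to all genes 0.37, 1.00, 1.08 and 1.09). Complex II split by subunit. SDHC stood at 86.4, 143 and 150 TPM in input and at 229, 184 and 212 TPM in polysomal RNA, all polysomal libraries being higher (0.75, SE 0.26, limma adjusted p = 0.044). SDHD, with which SDHC forms the membrane anchor and the haem site, stood at 42.7, 108 and 157 TPM in input and at 25.9, 39.5 and 30.8 TPM in polysomal RNA, all polysomal libraries being lower (-1.48, SE 0.49, limma adjusted p = 0.0417). SDHB was at 97, 204 and 227 TPM in input and at 118, 88.5 and 85.2 TPM in polysomal RNA, with overlap (-0.78, SE 0.33, limma adjusted p = 0.0649). SDHA was at 15.4, 40.1 and 51 TPM in input and overlapped as well (-0.42, SE 0.59).

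In complex III the call was split between UQCRC1, a large core subunit facing the matrix, and UQCR11. UQCRC1 stood at 484, 403 and 315 TPM in input and at 1011, 824 and 586 TPM in polysomal RNA (0.99, SE 0.25, limma adjusted p = 0.0252). UQCR11 stood at 417, 348 and 267 TPM in input and at 169, 185 and 237 TPM in polysomal RNA (-0.79, SE 0.25, limma adjusted p = 0.0408). The groups did not overlap for either gene, and the closest pair for UQCR11 was input replicate 3 and polysomal replicate 3. The companion core subunit UQCRC2 went the other way from UQCRC1 without a call (-0.92, SE 0.64, limma adjusted p = 0.228). UQCR10 was just outside the threshold (-0.62, SE 0.23, limma adjusted p = 0.0501).

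Complex IV had 3 calls, all higher, and none lower. COX4I1, the largest nuclear-encoded subunit, stood at 1517, 1579 and 1371 TPM in input and at 2949, 3232 and 3113 TPM in polysomal RNA (1.06, SE 0.18, limma adjusted p = 0.00737). COX5B, a zinc-binding subunit on the matrix side, stood at 1229, 828 and 638 TPM in input and at 1499, 1900 and 1937 TPM in polysomal RNA (1.03, SE 0.30, limma adjusted p = 0.0364). COX7A2, a small membrane subunit, stood at 1615, 1409 and 1360 TPM in input and at 2536, 2854 and 3303 TPM in polysomal RNA (0.98, SE 0.22, limma adjusted p = 0.0195). The fractions did not overlap for any of the 3, and COX4I1 had the tightest groups. The other 7 members of complex IV were not called, and the lowest of them was COX6C (-0.38, SE 0.27).

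Complex V had 2 members called higher, both genes of the ring that turns in the membrane, and 2 called lower. The other 11 of its 15 members were not called, among them the small membrane subunits ATP5MG (0.30, SE 0.21) and ATP5ME (0.12, SE 0.19). ATP5MC1 and ATP5MC2, which encode the same mature c subunit of the ring with different import sequences, were higher in polysomal RNA. ATP5MC1 stood at 1340, 1074 and 887 TPM in input and at 1780, 1849 and 2292 TPM in polysomal RNA (0.85, SE 0.23, limma adjusted p = 0.0297), and ATP5MC2 at 975, 962 and 749 TPM and 1349, 1428 and 1770 TPM (0.76, SE 0.20, limma adjusted p = 0.0295). ATP5MC3, the third gene for the same subunit, stood at 256, 214 and 195 TPM and 260, 254 and 316 TPM, with overlap (0.32, SE 0.23, limma adjusted p = 0.237). ATP5F1E, the epsilon subunit of the central stalk, fell from 90, 77.8 and 77.7 TPM to 26.1, 39.1 and 37.1 TPM (-1.26, SE 0.26, limma adjusted p = 0.0153). ATP5MF fell from 4713, 2647 and 2642 TPM to 1320, 1827 and 1807 TPM (-0.97, SE 0.25, limma adjusted p = 0.0274). For ATP5F1E and ATP5MF all polysomal libraries lay below all input libraries, and ATP5MF was highest in input replicate 1.

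**Figure D4:**
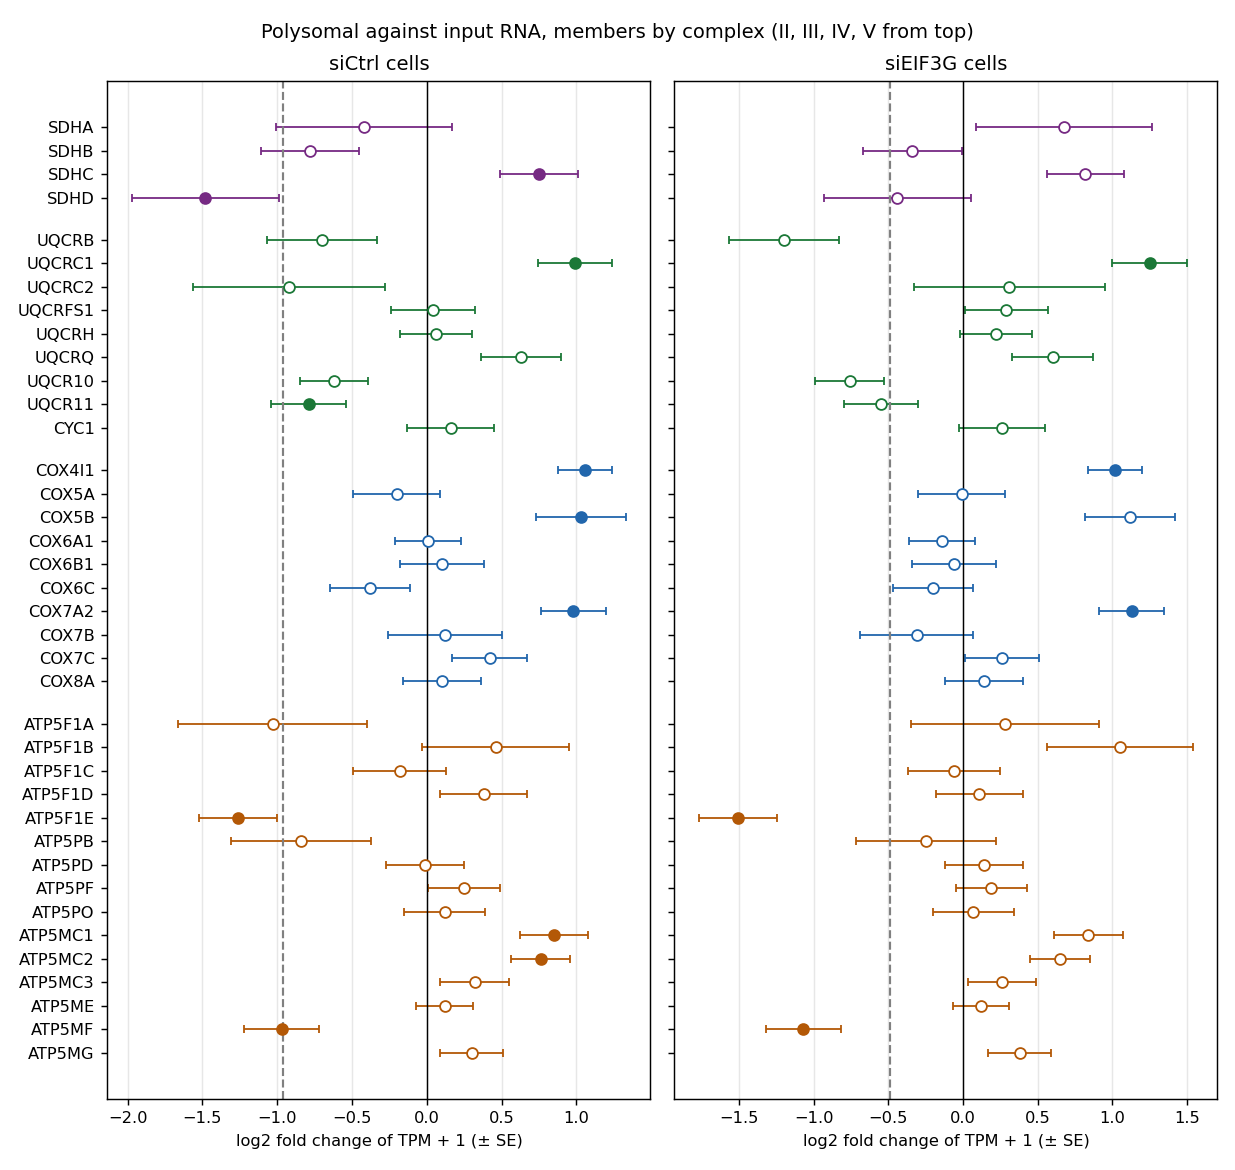
Log2 change of TPM + 1 between polysomal and input RNA (x axis, ± SE) for the 38 members (y axis, complex II at the top to V), in siCtrl cells on the left and siEIF3G cells on the right, with 3 libraries in each group. Filled points passed the adjusted threshold (11 members in siCtrl and 5 in siEIF3G cells), and the dashed line is the median of all genes, -0.96 and -0.49.

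In siEIF3G cells 3 members were higher in polysomal RNA (7.89%, beside 1.81% of all genes) and 2 were lower (5.26%, beside 1.33%). UQCRC1 stood at 382, 533 and 384 TPM in input and at 969, 1094 and 1003 TPM in polysomal RNA (1.25, SE 0.25, limma adjusted p = 0.0177). COX4I1 stood at 1387, 1978 and 1559 TPM and 3523, 2995 and 3352 TPM (1.02, SE 0.18, limma adjusted p = 0.0127), and COX7A2 at 1580, 1233 and 1010 TPM and 2839, 2189 and 3355 TPM (1.13, SE 0.22, limma adjusted p = 0.0182). The 3 genes showed no overlap between fractions. ATP5F1E stood at 104, 76.5 and 73.1 TPM in input and at 23.2, 30.3 and 33.4 TPM in polysomal RNA (-1.51, SE 0.26, limma adjusted p = 0.0102), and ATP5MF at 3112, 3214 and 2310 TPM in input and 1357 ± 58.7 TPM in polysomal RNA (SD, n = 3; log2 change -1.07, SE 0.25, limma adjusted p = 0.0357). The polysomal libraries of both genes lay below all input libraries.

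The 6 members called in siCtrl cells alone had these values in siEIF3G cells: SDHC 0.82 (SE 0.26, limma adjusted p = 0.108), COX5B 1.12 (SE 0.30, adjusted p = 0.0672), ATP5MC1 0.84 (SE 0.23, adjusted p = 0.0661), ATP5MC2 0.65 (SE 0.20, adjusted p = 0.103), UQCR11 -0.55 (SE 0.25, adjusted p = 0.243) and SDHD -0.44 (SE 0.49, adjusted p = 0.523). No difference between siEIF3G and siCtrl cells in the polysomal change passed the interaction test, so a call in one and not the other does not show that they differ. The comparison in siCtrl cells and the comparisons with siEIF3G share libraries. Medians in siEIF3G cells were 0.17 for complex II, 0.26 for III, 0.06 for IV and 0.14 for V, beside -0.49 over all genes. Under quantile normalization the median of all members there was -0.00, beside -0.06 over all genes.

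Groups that did not overlap numbered 9 higher (23.7%, beside 16.9% of all genes) and 7 lower (18.4%, beside 28.9%) among the members in siCtrl cells. In siEIF3G cells they numbered 10 higher (26.3%, beside 9.4%) and 5 lower (13.2%, beside 12.7%). UQCRB, UQCR10, UQCR11, ATP5F1E and ATP5MF were lower without overlap in both, and SDHC, UQCRC1, COX4I1, COX5B, COX7A2, ATP5MC1 and ATP5MC2 higher without overlap in both. The median shift of all genes depends on how libraries are scaled, and the direction of some members depends on it too. With median-of-ratios size factors the median of all genes in siCtrl cells moved from -0.96 to -0.04, 16 members were called higher and none lower, and UQCR11 (0.38), ATP5MF (0.20), UQCRC2 (0.22) and COX6C (0.80) turned positive. SDHD (-0.33) and ATP5F1E (-0.11) stayed below 0 without a call. Over all 10605 genes, 2835 were then called higher and 1723 lower. The 7 members called higher remained higher under that scaling, with SDHC at 1.92 and COX4I1 at 2.23. In siEIF3G cells that scaling left no member called, beside 0.443% of all genes.

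Single libraries decided many of these calls. In siCtrl cells, 7 members were called higher and 8 lower without siCtrl input replicate 1, 1 and 0 without input replicate 2, 1 and 0 without input replicate 3, 1 and 0 without polysomal replicate 1, 0 and 0 without polysomal replicate 2, and 2 and 1 without polysomal replicate 3. Calls over all genes moved as well. Without siCtrl input replicates 1, 2 and 3, 67.8%, 1.37% and 1.65% of all genes were called in either direction. Without siCtrl polysomal replicates 1, 2 and 3 the shares were 2.14%, 1.23% and 2.57%. Leaving out a siEIF3G polysomal library also moved the lower calls in siCtrl cells to 2 without replicate 1 and 2 without replicate 2. Of all genes 10.3% and 14.6% were then called. COX4I1 kept its call in siCtrl cells in 24 of 25 alternative settings and lost it without siCtrl polysomal replicate 2 (limma adjusted p = 0.0506). The calls behind the split of complex II held less often, SDHC in 10 and SDHD in 14 of 25 settings, as did that of UQCR11 in complex III, in 11, while UQCRC1 held in 20. The other 6 members called in siCtrl cells held in 17 to 20. In siEIF3G cells, higher and lower calls numbered 1 and 0 without siEIF3G input replicate 1, 5 and 1 without input replicate 2, 1 and 2 without input replicate 3, 0 and 0 without polysomal replicate 1, 2 and 1 without polysomal replicate 2 and 6 and 2 without siCtrl input replicate 1. Lower calls there fell to 1 without siCtrl input replicate 2, siCtrl polysomal replicate 2 or siCtrl polysomal replicate 3 (1.61%, 1.4% and 2.11% of all genes called). Without siEIF3G input replicates 1, 2 and 3, 0.575%, 3.92% and 1.41% of all genes were called in siEIF3G cells. Without siEIF3G polysomal replicates 1 and 2 the shares were 0.415% and 0.717%, and without siCtrl input replicate 1 the share was 7.4%.

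Without the 3 libraries that stood apart, 9 members were called higher and 9 lower in siCtrl cells, where 75.1% of all genes were then called, and 7 higher and 6 lower in siEIF3G cells, beside 71.1% of all genes. COX4I1 was then at 1.07 (SE 0.19, limma adjusted p = 0.000156), SDHD at -2.01 (SE 0.25, adjusted p = 1.88e-05), COX5B at 1.28 (SE 0.23, adjusted p = 0.000251) and ATP5F1E at -1.19 (SE 0.26, adjusted p = 0.00104) in siCtrl cells. SDHC lost its call (0.50, SE 0.23, limma adjusted p = 0.0652). The remaining calls in siCtrl cells stood, 10 of the 11 in all, as did all 5 in siEIF3G cells. The 3 libraries were set apart for correlating better with the other fraction than with their own group. Leaving them out therefore favours a difference between fractions, so calls that stood in this fit are no independent check.

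The balance among the 3 genes for the c subunit of ATP synthase was followed within each library, where library scaling cancels. The ratio of ATP5MC1 to ATP5MC2 in polysomal RNA was 1.32, 1.29 and 1.29 in siCtrl (1.3 ± 0.0146, SD, n = 3) and 1, 1 and 1.08 in siEIF3G (1.03 ± 0.0421, SD, n = 3). In input RNA it was 1.37, 1.12 and 1.18 in siCtrl (1.23 ± 0.134) and 0.939, 1.12 and 0.688 in siEIF3G (0.917 ± 0.219). The polysomal groups did not overlap (two-sided exact permutation p = 0.1, which is the smallest that 3 against 3 libraries allow), and the input groups met at 1.12 (two-sided exact permutation p = 0.2). ATP5MC1 held 52.4% of the summed TPM of the 3 genes in siCtrl polysomal and 46.6% in siEIF3G polysomal RNA, and ATP5MC3 held 7.36 and 8%. The ratio was chosen after its values were seen, and the design cannot reach 0.05 for it.

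Much of the spread between replicates ran along a single direction. The first axis of the deviations of all tested genes from their group means held 78% of the within-group variance, with scores of 0.59, -0.17 and -0.42 in siCtrl input, -0.21, 0.44 and -0.24 in siEIF3G input, -0.04, -0.13 and 0.17 in siCtrl polysomal and 0.12, 0.15 and -0.27 in siEIF3G polysomal RNA. The largest scores of the input groups were those of siCtrl input replicate 1 and siEIF3G input replicate 2, and the lowest polysomal score was that of siEIF3G polysomal replicate 3. Members took different sides of it: over the 12 libraries 15 correlated with the axis below -0.5, 10 above 0.5 and 13 lay between. The correlations are descriptions, since the axis was computed from the same libraries.

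**Figure D5:**
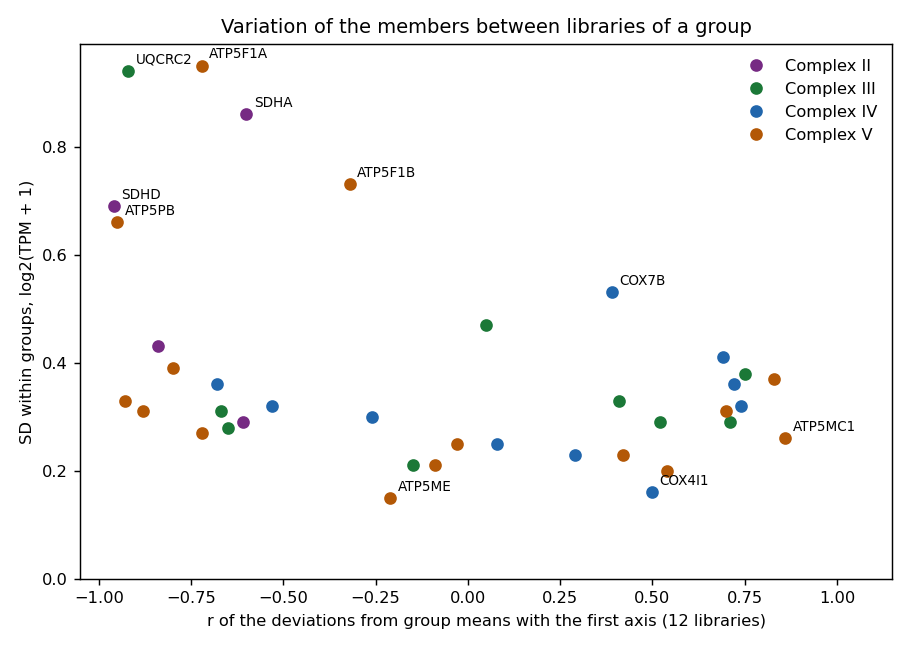
For each of the 38 members, the correlation of its deviations from group means with the first axis of within-group variation (x axis, 12 libraries) against its SD within groups in log2(TPM + 1) (y axis), coloured by complex. The 4 members of complex II all lie at or below -0.60, and the widest spreads belong to ATP5F1A (SD 0.95), UQCRC2 (0.94) and SDHA (0.86).

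All 4 members of complex II lay on the negative side, from SDHD at -0.96 to SDHA at -0.60. Complex II also had the widest typical spread, with a median SD within groups of 0.56 on the log2 scale, against 0.31, 0.32 and 0.31 for complexes III, IV and V. The members with the highest knockdown values in polysomal RNA were among those with the widest spread: ATP5F1A (r = -0.72, SD 0.95), UQCRC2 (r = -0.92, SD 0.94) and SDHA (r = -0.60, SD 0.86). ATP5F1B (r = -0.32, SD 0.73), SDHD (r = -0.96, SD 0.69) and ATP5PB (r = -0.95, SD 0.66) followed in spread. ATP5MC1 lay on the other side (r = 0.86, SD 0.26), while COX4I1 (r = 0.50, SD 0.16) and ATP5ME (r = -0.21, SD 0.15) varied little. What part this variation had in the knockdown values was not tested.

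Other genes of the pathway were counted from lists named by function, which were chosen with earlier results of these data known. No gene of any of these lists was called after knockdown in input or polysomal RNA or in the interaction (limma, all adjusted p at or above 0.65). Of 45 assembly factors of complexes II to V, 1 in input and 4 in polysomal RNA had an unadjusted p under 0.05. The smallest p in input RNA were those of PET100 (-0.63, SE 0.24), UQCC2 (-0.46, SE 0.24) and COX14 (-0.42, SE 0.27), which act in the assembly of complexes IV, III and IV. In polysomal RNA they were those of COA8 (0.99, SE 0.34), COA3 (-0.69, SE 0.25) and HIGD2A (-0.58, SE 0.25). In siCtrl cells 7 assembly factors were higher and 21 lower in polysomal than in input RNA, beside 7.98% and 28.9% of all genes. Their median was -1.15, or -0.18 relative to all genes.

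Complex I, the other entry point of electrons, had 37 subunits tested. In polysomal RNA of siCtrl cells 6 of them were higher and 5 lower, beside 7.98% and 28.9% of all genes. In siEIF3G cells complex I had 4 higher and 2 lower, beside 1.81% and 1.33% of all genes. Its median after knockdown in polysomal RNA was 0.09, or -0.25 relative to all genes, with NDUFS1, its largest core subunit, at 1.73 (SE 0.65), NDUFB10 at -0.53 (SE 0.24) and NDUFS3 at -0.48 (SE 0.23), each with a limma adjusted p of 0.65. Of 14 enzymes of the tricarboxylic acid cycle, which feeds complex II, FH (fumarase, the step after succinate dehydrogenase) was at 1.79 (SE 0.57) and SUCLG1 at 0.97 (SE 0.43) in polysomal RNA after knockdown, each with a limma adjusted p of 0.65, and the list's median was 0.77, beside 0.33 over all genes. COQ3, of ubiquinone synthesis, was at 1.25 (SE 0.50) and COQ10A, a ubiquinone-binding protein, at -0.81 (SE 0.35), and TFB1M, a methyltransferase of the mitochondrial ribosome, at 1.02 (SE 0.46), without a call. Of 11 tested transcriptional regulators of respiratory genes none was higher and 1 lower in polysomal RNA of siCtrl cells, and of 6 tested further subunits and isoforms of complexes IV and V none was higher and 3 were lower. These counts stand beside 7.98% of all genes higher and 28.9% lower.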

How the data were processed

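Polyadenylated mRNA from input and polysomal fractions of 12 H1299 samples was sequenced. The authors deposited TPM values per gene and library, computed with RSEM 1.3.1 on GRCh38.p13 per the submitters' processing notes; for the aligner, annotation and strand setting nothing is given in the sources used here. TPM keep no read numbers, so depth is unknown and no counting interval is given.

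TPM were tested as log2(TPM + 1), which understates changes of low genes. Genes below a mean of 1 TPM over the 12 libraries were set aside (5567, leaving 10605). The model had 4 group means over all 12 libraries (limma 3.58.1, R 4.3.3, mean-variance trend, 8 residual degrees of freedom), with Benjamini-Hochberg adjustment over all tested genes in each of 5 comparisons and a threshold of 0.05. The script was tested on simulated data with independent noise for each gene, its spread capped at the median over genes. The simulated data lacked the shared direction of variation found within groups, so that test does not cover it. Groups come from the labels.

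Named genes were EIF3G, called members, the highest-expressed member and the extremes of each complex, the SDH and c subunit genes, and up to 3 genes of smallest p in each other list; members whose groups did not overlap and members used in the variation analysis were added after their values were seen. The members and lists were chosen with earlier results of these data known. Alternatives covered the pseudocount, the filter, scaling, moderation, the samples fitted, a replicate block, a variation covariate and leaving out libraries.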

Additional observations from a re-analysis of the deposited data

How the results depend on the processing

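TPM without read numbers and 3 libraries a group limit these results, and the cause of each change below was not tested. Called members are given as higher and lower, complex medians relative to all genes. In siCtrl cells (polysomal against input, 7 and 4 members; medians 0.37, 1.00, 1.08 and 1.09 for complexes II to V) a pseudocount of 0.1 gave II 0.59, and one of 5 gave 2 lower, II -0.04 and V 0.63. No filter gave 2 lower, II -0.29, III 0.35, IV 0.43 and V 0.44, and a minimum of 5 TPM gave II 0.02. Size factors gave 16 and 0 with II 0.59, UQCRC2 0.22, UQCR11 0.38, COX6C 0.80 and ATP5MF 0.20. Quantile normalization gave II -0.35, III 0.02, IV 0.16 and V 0.11. Fitting only the compared groups gave 2 and 1, the variation covariate 8 lower, and the fit without the 3 libraries 9 lower with IV 1.69. Of all genes, 13.3% were called with a pseudocount of 5, 7.73% with no filter and 43% with size factors. The share was 5.75% with only the compared groups, 74.3% with the covariate and 75.1% without the 3 libraries. In siEIF3G cells (3 and 2 members; medians 0.66, 0.75, 0.56 and 0.63) a pseudocount of 5 gave II 0.42, no filter 1 lower and II 0.35, a minimum of 5 TPM 5 higher and II 0.47, size factors 0 and 0, and quantile normalization II 0.11, IV -0.02 and V 0.02. No trend gave 0 and 1, only the compared groups 0 and 0, the covariate 8 and 5, and the fit without the 3 libraries 7 and 6. Of all genes, 2.09% were called there with no filter, 5.85% with a minimum of 5 TPM and 0.443% with size factors. The share was 1.4% with no trend, 0.641% with only the compared groups, 61.3% with the covariate and 71.1% without the 3 libraries. For the polysomal knockdown effect, no filter gave II 0.70 (0.46 before), size factors SDHC -0.51 and COX5A -0.26, and the covariate 6 higher (36.4% of all genes called). For the interaction, no filter gave II 0.59, size factors SDHC -0.51 and COX5A -0.38, and a total without ribosomal protein genes SDHC -0.02. The covariate gave 1 higher (18% of all genes called). COX4I1 was at -0.00 in the input effect without the 3 libraries.

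Leaving out 1 library at a time gave 0 to 7 higher and 0 to 8 lower members in siCtrl cells, 0 to 6 and 0 to 2 in siEIF3G cells and none called after knockdown. Over all genes 1.23% to 67.8% were called in siCtrl cells and 0.415% to 7.43% in siEIF3G cells. In siCtrl cells the relative medians ran from -0.03 to 0.56 for complex II and from 0.67 to 1.69 for IV. In the interaction they ran from -0.70 to 0.10 for III and from -0.93 to -0.08 for IV. Input medians crossed 0 for III (-0.40 to 0.27), IV (-0.34 to 0.26) and V (-0.19 to 0.37). In the interaction ATP5F1A ran from 0.76 to 2.03, UQCRC2 from 0.64 to 1.90 and SDHA from 0.60 to 1.83. In the input effect ATP5F1A ran from -0.20 to 0.83, COX4I1 from -0.02 to 0.24, SDHD from -0.81 to 0.13 and UQCRC2 from -0.25 to 1.01, and SDHC ran from -0.05 to 0.10 in the polysomal effect and from -0.08 to 0.32 in the interaction.

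With a replicate block 6 members were higher and 3 lower in siCtrl cells (20% of all genes called) and 3 and 1 in siEIF3G cells (3.12%). None was called after knockdown. SDHC (limma adjusted p = 0.0531) and UQCR11 (0.0525) were then not called in siCtrl cells, nor ATP5MF (0.0587) in siEIF3G cells. The labels do not tie a replicate number to one lysate, so the main fit does not pair the samples. Each lysate gave both input and polysomal RNA, so the fractions were paired by design if the numbers follow the lysates. The deviations of same-numbered libraries correlated at -0.69 to 0.71 (input with polysomal -0.53 to 0.36 in siCtrl and -0.45 to 0.63 in siEIF3G cells). These correlations rest on 3 libraries a group and do not decide whether the numbers pair the samples. Fitting only the compared groups has no separate form for the interaction, which uses all 4.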
